A study of Mus musculus with 5 samples.

Results

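The plasma membrane calcium pumps Atp2b1, Atp2b2, Atp2b3 and Atp2b4, the endoplasmic reticulum calcium pumps Atp2a2 and Atp2a3, and the sodium-calcium exchangers Slc8a1, Slc8a2 and Slc8a3 were measured by RNA sequencing in mouse brain. They were chosen as genes of calcium removal, by symbol, and all 9 had a row among the 47729 genes of the deposited counts. The brains came from 5 male mice of the inbred strain C57BL/6 aged 30 months, with no treatment, genotype or second group in the labels. The mice are named by their label numbers, 7, 8, 9, 10 and 11. Each value after ± is an SD between mice (n = 5). The labels do not describe how each sample was collected, so part of this spread may be technical.

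A resting cell holds very little free calcium in its cytosol, and every signal that lets calcium in has to be undone by transport. Plasma membrane calcium pumps (PMCA, the Atp2b genes) use ATP to push calcium out of the cell with high affinity, and calmodulin activates them. Pumps of the endoplasmic reticulum (SERCA, the Atp2a genes) refill the internal store. Sodium-calcium exchangers (NCX, the Slc8a genes) spend the sodium gradient to move larger calcium loads out of the cell, and can run backwards when sodium rises inside. In brain, neurons and glia combine all of these at synapses, dendrites and fine processes.

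The coding stretch around the catalytic aspartate is shown for 4 of the pumps to let the family relation be read directly. Capitals mark the 15 bases of the aspartate codon, which receives the phosphate of ATP in each cycle, and the 4 codons after it. The sequences are from GENCODE M21 transcripts, 5′ to 3′ in the coding direction.
Atp2b1: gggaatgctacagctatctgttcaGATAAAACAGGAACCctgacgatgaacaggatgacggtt
Atp2b2: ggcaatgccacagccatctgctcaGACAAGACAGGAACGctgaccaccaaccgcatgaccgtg
Atp2b4: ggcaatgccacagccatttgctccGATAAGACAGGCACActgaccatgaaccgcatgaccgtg
Atp2a3: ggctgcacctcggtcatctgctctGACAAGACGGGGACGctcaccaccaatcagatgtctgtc
Of the 63 bases, 34 were the same in all 4 pumps shown and 46 in the 3 PMCA genes among them. The aspartate is codon 475 of Atp2b1, 499 of Atp2b2, 466 of Atp2b4 and 351 of Atp2a3. In GRCm38 each stretch lies inside a single exon: chr10:98999793-98999855 (plus strand, exon 10 of Atp2b1-201), chr6:113789879-113789941 (minus, exon 13 of Atp2b2-202), chr1:133731789-133731851 (minus, exon 10 of Atp2b4-206) and chr11:72975582-72975644 (plus, exon 8 of Atp2a3-201).

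The exchangers have an unrelated fold, and their most conserved parts are the alpha repeats that bind sodium and calcium. Capitals mark 6 codons of the first alpha repeat.
Slc8a1: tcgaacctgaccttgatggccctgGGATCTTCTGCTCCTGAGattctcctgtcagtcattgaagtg
Slc8a2: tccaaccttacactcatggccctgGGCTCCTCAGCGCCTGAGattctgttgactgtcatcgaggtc
Slc8a3: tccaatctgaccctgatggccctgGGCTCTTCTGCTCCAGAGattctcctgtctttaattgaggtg
Here 46 of 66 bases were the same in all 3 genes. The stretches lie at chr17:81649149-81649214 (minus strand, exon 1 of Slc8a1-201), chr7:16134229-16134294 (plus, exon 2 of Slc8a2-202) and chr12:81315579-81315644 (minus, exon 2 of Slc8a3-203).

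Close as they are at these sites, the members were distinct enough over their full length for reads to be told apart. Coding identity within the PMCA family ran from 72.09% for Atp2b1 and Atp2b4 to 78.23% for Atp2b2 and Atp2b3. It was 70.39% for the SERCA pair and between 68.65% and 72.45% among the exchangers. Of the 31-base words in the transcript nearest to each counted length, looked up on both strands, at most 5.86% also occurred in a transcript of another gene. That highest share was in Atp2a2, where 260 of the 331 shared words occurred in Gm30970, for which no counts are given here. Gm43361 held 57 of them. It is an opposite-strand transcript that overlaps Atp2a2 and had a mean of 52 counts against 24913 for Atp2a2. In Atp2b1 the share was 3.38%, mostly through the pseudogene Gm29808, which had a mean of 1.2 counts. In M21, 304 exon bases of Slc8a1 lie under AC122399.1 and Gm11096 on the opposite strand. The strand setting is not given in the sources used here, and without strand the reads of overlapping genes cannot be told apart.

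The 5 libraries held between 15392006 and 18723390 counts, and from 22686 to 24708 genes had at least 1 count. Summed levels of marker lists for neurons, astrocytes and oligodendrocytes were between 525.7 and 761 RPKM (read counts per kilobase of gene length and per 1000000 counts of the library) in every mouse, while the muscle enzyme gene Ckm had a mean of 0.6 counts. Mouse 11 stood apart in base composition: across 16264 genes, the deviation of its log2 CPM from each gene's mean had a Spearman correlation of 0.70 with GC content. In the other mice this correlation lay between -0.41 and -0.03; genes are not independent replicates, so these are descriptions.

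All 4 plasma membrane pumps were expressed, with Atp2b1 and Atp2b2 above Atp2b3 and Atp2b4 in every mouse. In whole tissue, more cells of a type and more RNA per cell cannot be told apart. Atp2b1 (ENSMUSG00000019943, chr10:98914406-99026143, plus strand), the pump found in most cell types, had 113, 87.5, 89.3, 78.7 and 54.7 RPKM in mice 7, 8, 9, 10 and 11. Its mean was 84.68 ± 21.04 RPKM, or 604 ± 150 CPM (counts per 1000000 counts of the library, with no length in it), with the highest value in mouse 7 and the lowest in mouse 11. Atp2b2 (ENSMUSG00000030302, chr6:113743831-114042613, minus strand), the fast pump of Purkinje cells and of the hair bundles of the inner ear, had 64.3, 67.9, 74.3, 77.6 and 91.4 RPKM. Its mean of 75.1 ± 10.5 RPKM (947 ± 133 CPM) came with the opposite extremes, lowest in mouse 7 and highest in mouse 11. Counting error was small for both, with an expected CV of 1.02% for Atp2b1 and 0.802% for Atp2b2 against observed CVs of 24.9% and 14.0%.

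Atp2b3 and Atp2b4 had lower and similar levels. Atp2b3 (ENSMUSG00000031376, chrX:73503086-73571005, plus strand), a pump largely restricted to neurons, had 32.2, 29.4, 33.6, 30.3 and 30.1 RPKM in mice 7 to 11. Its mean was 31.1 ± 1.73 RPKM (150 ± 8.33 CPM), with a CV of 5.55%. Atp2b4 (ENSMUSG00000026463, chr1:133699457-133801041, minus strand), a widely expressed pump, had 29.9, 32.9, 38.7, 34.7 and 33.5 RPKM, with a mean of 33.9 ± 3.19 RPKM (416 ± 39.1 CPM). The ranges of these genes overlapped, and Atp2b4 was the higher of the pair in 4 of 5 mice.

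Among the store pumps nearly all RNA came from Atp2a2, the highest of the 9 genes in every mouse. Atp2a2 (ENSMUSG00000029467, chr5:122453513-122502225, minus strand), which encodes SERCA2, the store pump of almost every cell, had 218, 253, 290, 280 and 223 RPKM in mice 7 to 11. Its mean of 252.7 ± 32.4 RPKM (1537 ± 197 CPM) ranked 79 among all genes of the table. Mice 9 and 10 were highest and mice 7 and 11 lowest, and the highest value was 1.33 times the lowest. Atp2a3 (ENSMUSG00000020788, chr11:72961169-72993044, plus strand), which encodes SERCA3, known from blood platelets, endothelium and Purkinje cells, had 3.14, 2.60, 2.78, 4.70 and 4.04 RPKM. These came from 258, 211, 230, 398 and 399 counts, so counting alone gives a CV of 5.78% against an observed 25.8%. Mice 10 and 11 stood above the other 3, and the mean was 3.45 ± 0.890 RPKM (18.2 ± 4.70 CPM).

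The exchangers were led by Slc8a2, the form largely restricted to the nervous system. Slc8a2 (ENSMUSG00000030376, chr7:16129826-16161063, plus strand) had 48.4, 48.6, 56.2, 52.2 and 76.9 RPKM in mice 7 to 11, with a mean of 56.5 ± 11.8 RPKM (239 ± 50.1 CPM). Mouse 11 lay well above the other 4, which were within a narrow band. Slc8a1 (ENSMUSG00000054640, chr17:81373105-81738377, minus strand), the exchanger that also serves the heart, had 24.8, 20.5, 20.1, 16.2 and 14.6 RPKM and a mean of 19.24 ± 3.995 RPKM (56.4 ± 11.7 CPM). Slc8a3 (ENSMUSG00000079055, chr12:81197915-81333180, minus strand), the form of brain and skeletal muscle, had 9.44, 9.65, 8.89, 7.93 and 8.77 RPKM, with a mean of 8.94 ± 0.674 RPKM (47.7 ± 3.59 CPM). Its CV was 7.54%, beside 3.59% from counting.

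The level of Slc8a1 rests on a short gene model. The length that the authors' values imply for it was 2934 bases, equal to the joint exons of Slc8a1-201 and Slc8a1-203, of which 2931 bases are coding. The M21 exons of the gene cover 18807 bases, and with that length its mean would be 3.001 RPKM. For Atp2b1 the implied length was 7130 bases, that of Atp2b1-201, against 15218 bases of M21 exons, with which its mean would be 39.7 RPKM. For Slc8a2 the implied length was 4233 against 5261 bases, and the other 6 lengths were equal to those of M21. The implied lengths are used here, on the reading that the counts were made on the shorter models. The annotation used for counting is not given.

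**Figure D1:**
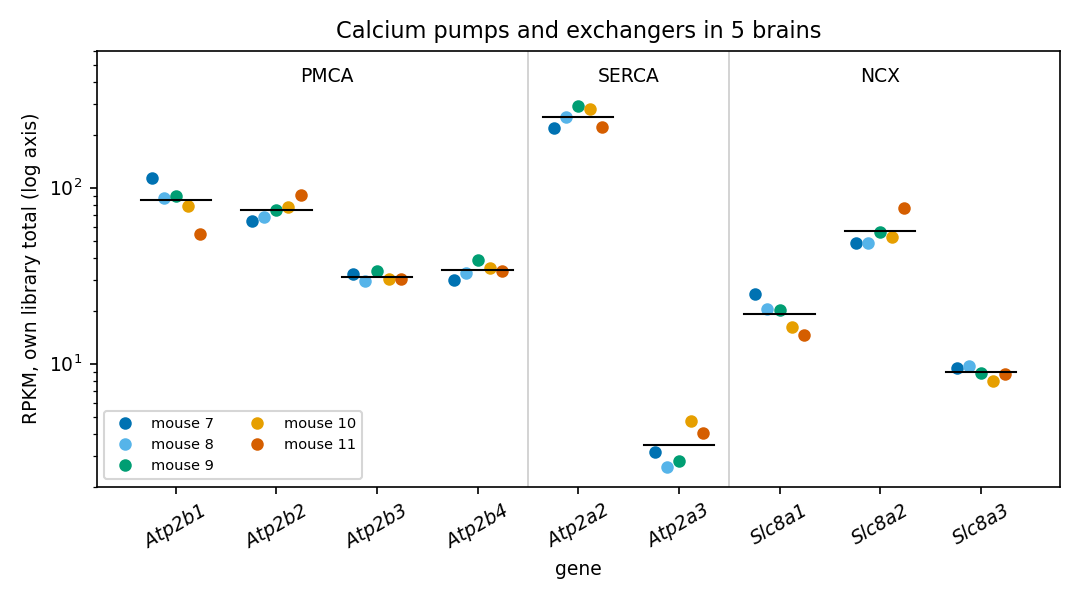
RPKM of the 9 genes (log axis), recomputed with each library's own total; each dot is 1 mouse and each black line the mean of the 5 mice. Atp2a2 sits above all other genes at 218 to 290 RPKM and Atp2a3 below them at 2.60 to 4.70, while Atp2b1 and Atp2b2 overlap.

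From highest to lowest mean RPKM the order was Atp2a2, Atp2b1, Atp2b2, Slc8a2, Atp2b4, Atp2b3, Slc8a1, Slc8a3 and Atp2a3. Each of the 36 possible pairs was compared by the log2 ratio of RPKM (pseudocount 0.1) by flipping signs over mice in every possible way, an exact permutation test whose smallest two-sided p is 0.0625. No pair can therefore pass a threshold of 0.05. In 33 pairs the same gene was higher in all 5 mice, with an exact p of 0.0625 (0.0682 adjusted over the 36 pairs), and in 32 pairs the ranges did not overlap. Of the 8 neighbours in the order, 5 had ranges apart: Atp2a2 over Atp2b1, Slc8a2 over Atp2b4, Atp2b3 over Slc8a1, Slc8a1 over Slc8a3 and Slc8a3 over Atp2a3.

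The remaining neighbours were not separated beyond their spread, or only within mice. Atp2b1 exceeded Atp2b2 in 4 of 5 mice, with a mean log2 ratio of 0.15 ± 0.57 (exact permutation p = 0.5625, adjusted 0.5625), and without mouse 7 the mean ratio was -0.02. Atp2b4 exceeded Atp2b3 by 0.12 ± 0.13 on the log2 scale (exact permutation p = 0.125, adjusted 0.129). Outside the neighbours, Atp2b1 exceeded Slc8a2 in 4 of 5 mice, by 0.57 ± 0.64 (exact permutation p = 0.125, adjusted 0.129). Atp2b2 exceeded Slc8a2 in all 5 mice, by 0.42 ± 0.12 on the log2 scale, although their ranges overlapped. With M21 exon lengths Atp2b1 fell below Atp2b2 and Slc8a2, at log2 ratios of -0.95 and -0.21, and Slc8a1 fell below Slc8a3 and Atp2a3. The latter ratios were -1.56 for Slc8a1 over Slc8a3 and 0.18 for Atp2a3 over Slc8a1.

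Within the plasma membrane family the summed level differed little between mice, while its makeup differed more. The 4 Atp2b genes summed to 239.6, 217.7, 235.8, 221.4 and 209.8 RPKM in mice 7 to 11, a mean of 225 ± 12.5 RPKM. Atp2b1 took 47.2%, 40.2%, 37.9%, 35.6% and 26.1% of that sum, and Atp2b2 26.8%, 31.2%, 31.5%, 35.04% and 43.6%. Mouse 7 thus had 1.76 times as much Atp2b1 as Atp2b2 RNA per length, and mouse 11 had 0.599 times as much. With GC and length trends removed, the span of this ratio over the mice was 0.89 log2 units in place of 1.56. Atp2b3 held between 13.5% and 14.4% in every mouse and Atp2b4 between 12.5% and 16.4%. With M21 exon lengths the mean share of Atp2b1 was 22.1% in place of 37.4%.

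The makeup of the exchanger family also differed between mice. Its sums were 82.6, 78.7, 85.2, 76.4 and 100.3 RPKM, highest in mouse 11. Slc8a2 took 58.5%, 61.7%, 66.0%, 68.4% and 76.7% of the sum in mice 7 to 11, Slc8a1 30.0%, 26.0%, 23.5%, 21.2% and 14.6%, and Slc8a3 between 8.75% and 12.3%. The ratio of Slc8a2 to Slc8a1 was lowest in mouse 7 at 1.95 and highest in mouse 11 at 5.25, and its span was 0.80 log2 units with GC and length trends removed in place of 1.43. With M21 exon lengths the mean share of Slc8a1 was 5.39% in place of 23.1%, below the 15.9% of Slc8a3, and that of Slc8a2 was 78.7% in place of 66.3%. In the SERCA pair Atp2a2 held between 98.2% and 99.0% of the sum.

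**Figure D2:**
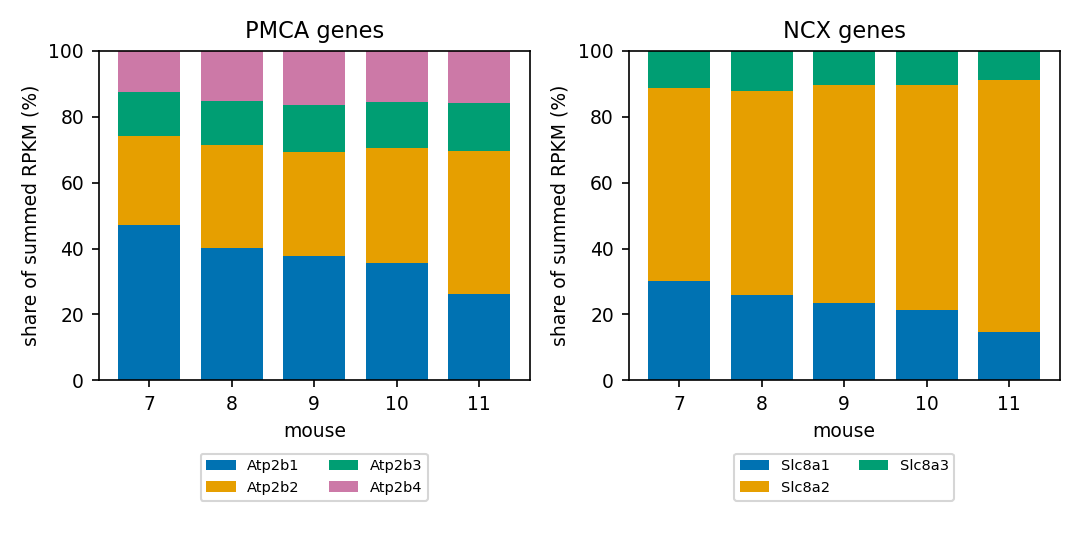
Share of each gene in the summed RPKM of the 4 PMCA genes (left) and the 3 NCX genes (right), in percent, with 1 bar per mouse. Atp2b1 has its largest share in mouse 7 (47.2%) and its smallest in mouse 11 (26.1%), and Slc8a1 does the same (30.0% and 14.6%).

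Summed over all 9 genes the level was 565.6 ± 31.9 RPKM. SERCA contributed 256.1 ± 32.4 RPKM, PMCA 224.9 ± 12.5 and NCX 84.6 ± 9.38. The SERCA sum exceeded the PMCA sum in mice 8 to 11, by 1.08 to 1.28 times, and was 0.925 times as large in mouse 7. PMCA RNA exceeded NCX RNA 2.77 to 2.90 times in mice 7 to 10 and 2.09 times in mouse 11. These sums and ratios use the implied lengths and were not recomputed with M21 exon lengths. With M21 exon lengths the mean of Atp2b1 was 39.7 RPKM in place of 84.7, while both SERCA genes were unchanged. The order of SERCA and PMCA in mouse 7 therefore rests on the shorter model of Atp2b1. The ratios of PMCA to NCX also depend on the models of Slc8a1 and Slc8a2.

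For genes averaging 10 counts or more, the spread between mice was then compared with that of their peers, genes at a similar level. The test asks whether a gene varied more than its peers, not whether the mice differed. The reference was fitted to the tested genes, so the background share does not count genes that differ between mice. In all 9 members the observed CV exceeded that from counting, as in Atp2b1 (24.9% beside 1.02%). In edgeR's quasi-likelihood test with Benjamini-Hochberg adjustment, 0 of 9 members were called, against a background of 0% of 16318 genes (adjusted p between 0.982 and 0.999 for the members). At an unadjusted p under 0.05 the members called were also 0, against 4.82% of all genes. DESeq2 marked 49 genes (0.3%) as dispersion outliers, none of them a member. In simulated counts for the same 16318 genes the test recovered 15 of 100 genes (mean count of at least 100) raised 4-fold in a single mouse, and 100 of 100 raised 16-fold. The highest mouse exceeded the lowest by at most 2.07-fold in the members, a size below those simulated.

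The SD of log2 CPM, with TMM scaling, ranged from 0.09 for Atp2b3 to 0.37 for Atp2a3. The median over the members was 0.23, beside 0.30 over all genes tested and 0.23 over the 8071 genes with at least the mean count of Atp2a3. The next largest SDs belonged to Atp2b1 (0.35), Slc8a2 (0.31) and Slc8a1 (0.28), and the next smallest to Slc8a3 (0.11) and Atp2b4 (0.15). Atp2b2 and Atp2a2 lay between these, at 0.23 and 0.18. The order of the SDs turned with the setting. With each library's trends against GC content and length removed, the smallest was that of Slc8a2 (0.11) and the largest that of Slc8a1 (0.31), and among the plasma membrane pumps Atp2b1 (0.13) was then the smallest and Atp2b4 (0.22) the largest. Without mouse 10 the SD of Atp2b1 was 0.40 and that of Atp2a3 0.31. Single mice carried much of some SDs: without mouse 11 they were 0.22 for Atp2b1, 0.13 for Atp2b2 and 0.12 for Slc8a2, and without mouse 10 that of Slc8a3 was 0.04.

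Base composition differed widely among the members and moved with the deviations of mouse 11. GC content of the counted transcripts was lowest in Atp2b1, at 42.6%, and highest in Slc8a2, at 58.8%, with Atp2a3 at 57.3%. Relative to their own means, Atp2b1 deviated by -0.53 and Slc8a2 by 0.53 on the log2 scale in mouse 11, the extremes of the 9 genes. Across the 9 genes the Spearman correlation of GC content with the deviation was 0.67 in mouse 11 and between -0.68 and 0 in the others. This is a description, since the genes of a library share its depth and scaling.

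When each library's trends against GC content and length were removed, the SD of Atp2b1 was 0.13 and that of Slc8a2 0.11, with deviations in mouse 11 of -0.14 and -0.01, in place of SDs of 0.35 and 0.31. The SDs of Atp2a2 (0.12), Atp2a3 (0.28) and Atp2b2 (0.21) were also smaller than before, and Atp2b2 still deviated by 0.32 in mouse 11. The remaining 4 members had larger SDs: Atp2b3 0.17, Slc8a3 0.18, Atp2b4 0.22 and Slc8a1 0.31. For Slc8a1 the SD was 0.12 when the GC content of its longest M21 transcript (40.2%) was used, an alternative chosen after seeing the data. The part of library base composition in the shifts of family makeup was not tested further.

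**Figure D3:**
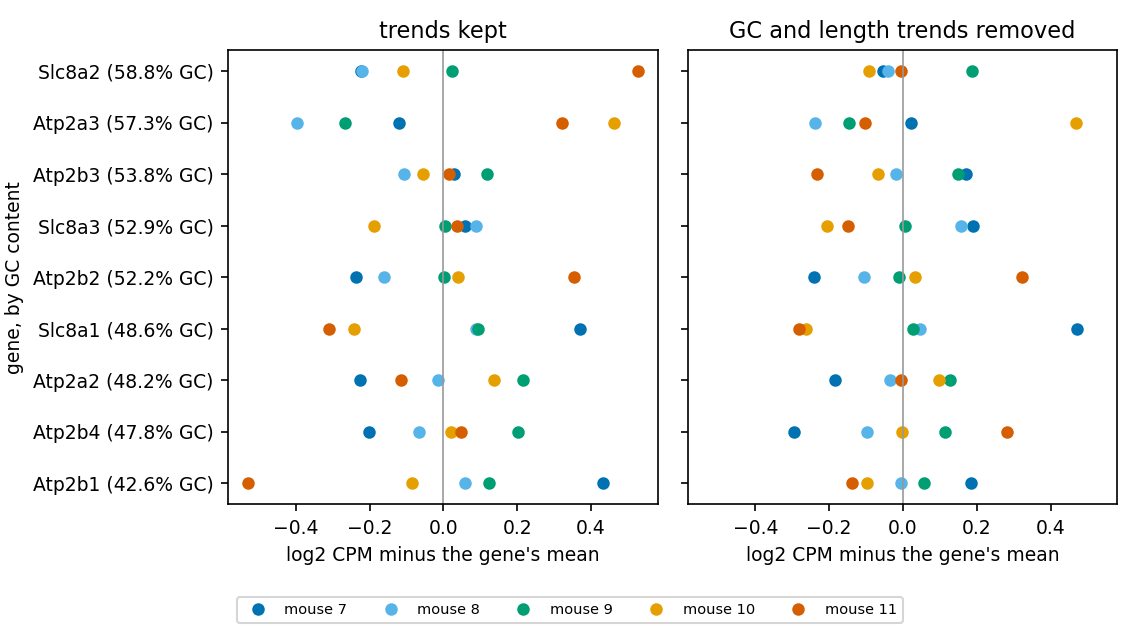
Deviation of log2 CPM (TMM scaling) from each gene's mean in every mouse, with the trends against GC content and length kept (left) or removed (right); genes are ordered by GC content. In mouse 11 Slc8a2 lies at 0.53 and Atp2b1 at -0.53 on the left, against -0.01 and -0.14 on the right.

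Atp2a3, the least abundant member, was set beside markers of the cerebellum, where Purkinje cells express it. Its log2 deviations were -0.12, -0.40, -0.27, 0.46 and 0.32 in mice 7 to 11. Cbln3, a secreted protein of cerebellar granule cells, had 1.24, 0.0688, 0, 5.16 and 0.249 RPKM, and the Purkinje cell gene Car8 had 3.94, 2.14, 1.92, 9.82 and 1.18. Atp2a3 was highest in mouse 10, as were 5 of the 6 granule cell markers and 4 of the 6 Purkinje cell markers. Etv1 was highest in mouse 9, and the Purkinje genes Calb1 and Itpr1 in mouse 7. In mouse 7, where Atp2a3 was below its mean, 3 granule cell markers (Cbln3, Gabra6 and Fat2) and 5 Purkinje cell markers were above theirs. In mouse 11, where Atp2a3 was second highest, all 6 Purkinje cell markers and 4 of the 6 granule cell markers were below their means.

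Over the 18 marker lists 84 genes were tested, of which edgeR called 0, 15 had an unadjusted p under 0.05 (background 4.82%) and 5 were DESeq2 outliers (background 0.3%). The granule cell and Purkinje cell lists each held 3 of the 15, and the erythroid list 4. Summed over 6 genes, the granule cell list ranged from 23.1 RPKM in mouse 8 to 43.8 in mouse 10, and 6 Purkinje genes from 42.0 in mouse 11 to 93.8 in mouse 7. Gabra6, a granule cell receptor subunit, had between 0 and 127 counts. Genes of platelets and megakaryocytes, another known source of Atp2a3, summed to between 3.5002 and 7.67 RPKM over 5 genes. The sum was highest in mouse 11, where Gp1bb alone had 5.20 RPKM. Gp1bb, Itga2b and Gp9 were highest in mouse 11, but Pf4 was highest in mouse 10 and Ppbp in mouse 8. Of the defining platelet genes Pf4, Ppbp and Gp9 had means of 12.2, 4.6 and 3.6 counts, and Gp9 was at 0 in mouse 9. The list of endothelium, also a known source, ranged over 5 genes from 53.6 RPKM in mouse 7 to 91.7 in mouse 11. Cldn5 and Slc2a1 were highest in mouse 11, Pecam1 in mouse 9, Flt1 in mouse 8 and Emcn in mouse 7. Pecam1 was lowest in mouse 11. The erythroid list ranged from 64.3 to 209 RPKM, also highest in mouse 11. With GC and length trends removed, Atp2a3 deviated by 0.47 in mouse 10 and by -0.10 in mouse 11, and without mouse 10 its SD was 0.31. The part of these cells in the level of Atp2a3 was not tested.

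**Figure D4:**
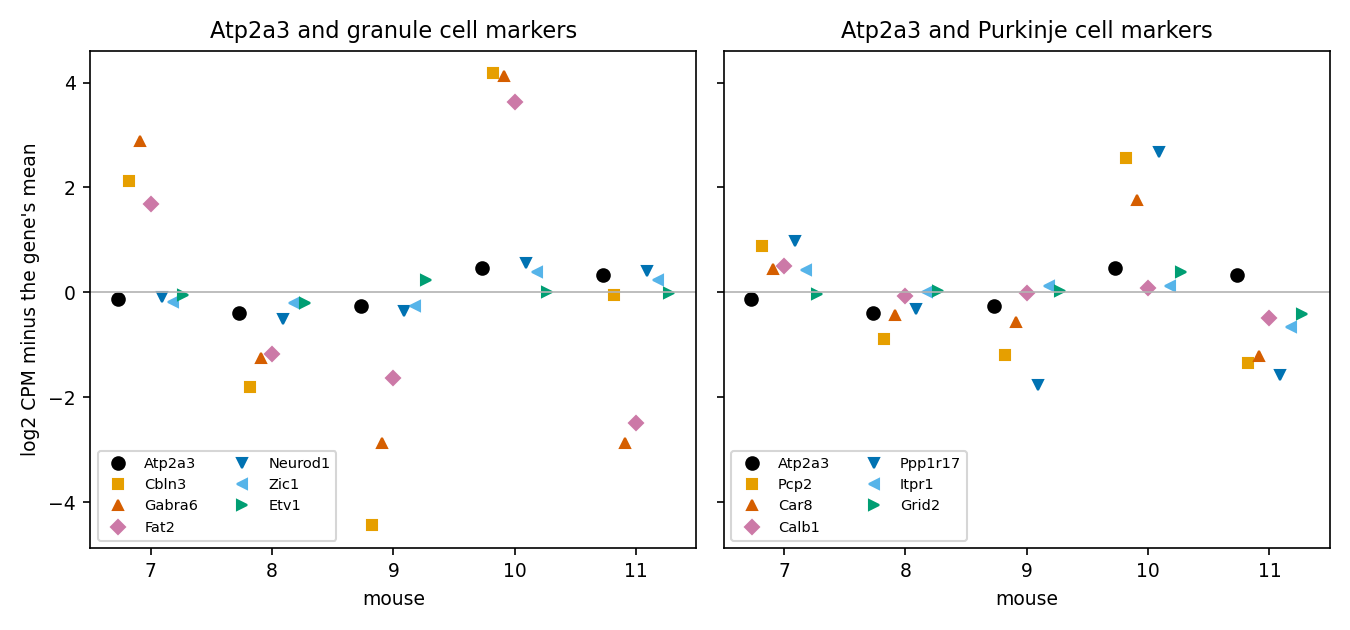
Deviation of log2 CPM from each gene's mean in the 5 mice for Atp2a3 (black circles) with all 6 granule cell markers (left) and all 6 Purkinje cell markers (right). Every marker is above their mean in mouse 10, where Atp2a3 is at 0.46 (Etv1 only by 0.01); in mouse 7 Atp2a3 is at -0.12 while Cbln3 is at 2.12 and Pcp2 at 0.88, and in mouse 11 Atp2a3 is at 0.32 while the 6 Purkinje cell markers are below their means.

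For the 3 members with the largest SD, the genes of the lists nearest in pattern were found by the root mean square difference of log2 deviations over the 5 mice, among 136 genes. Nearest to Atp2a3 were Neurod1 (0.09) and Zic1 (0.11), transcription factors on the granule cell list. They were the only 2 genes of that list above their means in mouse 11. The other 4 were below (Gabra6 at -2.88, Fat2 at -2.50, Cbln3 at -0.05 and Etv1 at -0.01). Nearest to Atp2b1 were Slc24a2 (0.04), a potassium-dependent sodium-calcium exchanger of neurons, and Dlg1 (0.05), a scaffold protein. Nearest to Slc8a2 was Wfs1 (0.06), an endoplasmic reticulum protein. The genes nearest to Atp2b1 and Slc8a2 had GC contents close to theirs, from 43.8% to 44.0% beside 42.6% and 57.8% beside 58.8%. Neurod1 and Zic1, at 43.6% and 45.7%, were far from the 57.3% of Atp2a3. All these patterns were compared with the GC and length trends kept. With the trends removed the SD of Atp2a3 was smaller, at 0.28 in place of 0.37. Those of Neurod1 and Zic1 were larger, at 0.58 in place of 0.47 and 0.39 in place of 0.29. Nearest patterns were not searched with the trends removed.

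Partners, regulators and relatives of the members, with genes of Golgi and mitochondrial calcium transport and of the sodium pump, were taken from 6 lists. Of their 49 matched genes, 44 had a mean count of at least 10. By edgeR 0 of the 44 were called more variable than their peers, and also 0 at an unadjusted p under 0.05 (background 4.82%). DESeq2 marked 0 of them as outliers (background 0.3%), and their median SD of log2 CPM was 0.23. RNAs of several proteins that serve the plasma membrane pumps had mean RPKM above that of any Atp2b gene. Basigin (Bsg) and neuroplastin (Nptn), the membrane partners that plasma membrane pumps need, had 154 ± 21.6 and 109 ± 9.98 RPKM, although in mouse 7 Nptn (95.2 RPKM) was below Atp2b1 (113 RPKM). The calmodulin genes Calm2 and Calm3 had 661 ± 93.4 and 543 ± 93.1 RPKM, while Calml3 had 0 counts in every library, which allows up to 3.

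Levels were low for the inhibitory peptides of SERCA on the lists, and other such peptides were not examined. Phospholamban (Pln) had 1.21 ± 0.288 RPKM, from 39 to 59 counts per library. Sarcolipin (Sln) had a mean of 3 counts and myoregulin (Mrln) 2.8 counts. The muscle store pump Atp2a1 had 0.349 ± 0.184 RPKM, from 8 to 42 counts per library; the 26 words that Atp2a3 shares with other genes all occur in it. The store proteins Canx (calnexin) and Calr (calreticulin) had 110.1 ± 15.05 and 101 ± 9.90 RPKM. In the Golgi, the calcium and manganese pump Atp2c1 averaged 18.4 ± 3.19 RPKM. Its 12.8 RPKM in mouse 11 lay under the 19.2 to 20.6 of the remaining libraries. Tmem165, another Golgi protein, had 14.7 ± 2.02. The related Atp2c2 had 0.423 ± 0.122 RPKM.

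Among relatives of the exchangers, Slc24a2 had 57.4 ± 14.4 RPKM, a mean near the 56.5 of Slc8a2, and Slc24a3 had 43.3 ± 5.09. In single mice Slc24a2 and Slc8a2 differed, with 75.2 against 48.4 RPKM in mouse 7 and 35.6 against 76.9 in mouse 11. The photoreceptor form Slc24a1 had a mean of 7.8 counts. Slc8b1, the sodium-calcium exchanger of mitochondria, had 1.84 ± 0.406 RPKM. For calcium entry into mitochondria, the uniporter subunits Smdt1 and Micu3 had 44.0 ± 11.4 and 20.8 ± 2.34 RPKM and Mcub, its inhibitory subunit, 1.56 ± 0.186.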

How the data were processed

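RNA from 5 brains, 1 library each, was analysed. The authors deposited whole-number counts per Ensembl gene and RPKM values. The tools named per the submitters' processing notes are featureCounts 1.4.6-p4, STAR 2.4.1d and CASAVA 1.7, and the build is GRCm38. The annotation, strand setting and filters are not given in the sources used here. In the deposited RPKM, the values fit library totals taken in turn down the table: lengths implied by the 5 mice were within 1% of each other for 12729 of 12729 genes under that reading and for 0 under own totals. RPKM was therefore recomputed from the counts with each library's own total and the implied length. The members and lists were chosen with earlier results of these data known.

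Variation was fitted in edgeR 4.0.16 (intercept, TMM, mean count of at least 10; robust F fit in limma 3.58.1; Benjamini-Hochberg, threshold 0.05). The same test was also run on simulated counts, whose means and dispersion were taken from these data. DESeq2 1.42.0, other scalings, filters, pseudocounts and lengths, and each mouse left out were alternatives. Trends were natural splines (4 df) on GC content and log length. No pair of libraries was a duplicate: the chi-square per gene lay between 6.49 and 90.5. Depth was 15392006 to 18723390 counts per library. Names and coordinates come from GENCODE M21. Named were all 9 members and, from each list, the 2 highest genes, the lowest and any called variable, with fixed partners, 2 nearest patterns for 3 members, and markers set beside a member; Dlg1 and Wfs1 entered as nearest patterns. Some genes and sequences that this rule would name are not reported here.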

Additional observations from a re-analysis of the deposited data

Results flagged for a closer look

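Values of 1 mouse were examined for a wide gap to the other 4 (Dixon's criterion, a gap above 0.71 of the whole range) in 37 items: the members, the family sums and the named partner genes. Chance flags about 1 in 20 such groups, and 2 of the 37 items passed, both in mouse 11. Calml3, at 0 counts in every library, had no range and could not pass. Slc8a2 had 325.4 CPM in mouse 11 against 204.8 to 238 in the others. Atp2c1 had 124 CPM in mouse 11 against 186 to 199.7. The GC contents of their transcripts were 58.8% and 41.2%, and the Spearman correlation of deviations with GC content over all genes was 0.70 in that library; its part in these values was not tested beyond the removal of trends.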

How the results depend on the processing

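No comparison between groups was possible because the labels give a single group. The count of genes called more variable than their peers was 0 in 9 alternatives. It was 230 with no filter beyond 1 count in total and 49 as DESeq2 dispersion outliers. Between 31 and 35 pairs had 1 order in every mouse, beside 33. With M21 exon lengths 4 log2 ratios changed sign. These were Atp2b1 over Atp2b2 (-0.95) and over Slc8a2 (-0.21), Atp2a3 over Slc8a1 (0.18) and Slc8a1 over Slc8a3 (-1.56). If the counts were made on the shorter models, that alternative divides them by the longer lengths of Atp2b1, Slc8a1 and Slc8a2. With 1 mouse left out at a time, Atp2b1 over Atp2b2 ranged from -0.0218 (without mouse 7) to 0.37 (without mouse 11). The mean shares of Atp2b1 and Slc8a2 moved to 22.1% and 78.7% with those lengths. Deposited RPKM, other pseudocounts and TMM-scaled CPM changed no direction. Removing GC and length trends inside the edgeR fit, or with the GC content of the longest transcripts, was chosen after seeing the data. Counting error was largest for Atp2a3, with 299.2 counts on average and an expected CV of 5.78%.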
